A study of Mus musculus with 12 samples.

Results

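The 9 genes described here, Gas5, Snhg1, Snhg3, Snhg5, Snhg6, Snhg8, Snhg12, Snhg15 and Zfas1, make noncoding RNAs that carry small nucleolar RNAs (snoRNAs) within them. They were taken as a list of symbols, with no threshold on a measured value but with earlier results of these data known, and all 9 were matched to an Ensembl identifier among the 56748 genes in the deposited tables. Bulk RNA-seq was available for 12 libraries of murine bone marrow (BM) cells that were sorted as donor-derived Lin-Sca+Kit+ (LSK), a fraction that holds haemopoietic stem and multipotent progenitor cells. All donor cells carried the SCLtTA/BCR-ABL double transgene (DTG, CD45.2), in which tetracycline (TET) keeps human BCR::ABL1 off, and all were transplanted into B6.SJL recipients (CD45.1) aged 8 to 12 weeks that had received 2 doses of 4.25 Gy, 3 h apart. Every mouse received TET for 2 weeks after transplant. In CTRL (n = 6 libraries) TET was then continued, so that BCR::ABL1 stayed off, and in CML 2wk (n = 6 libraries) TET was removed for 2 weeks, so that BCR::ABL1 was expressed. The comparison therefore asked how the snoRNA hosts differ between LSK cells with and without BCR::ABL1.

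Several features of the design limit the comparison. SCL regulatory sequences restrict the transactivator to SCL-expressing stem and progenitor cells. The donor BM was a frozen pool of animals of both sexes according to the methods. Nothing in the labels says which recipients gave which library, so that p-values measure the spread between libraries. The labels give male for every CTRL sample and female for every CML 2wk sample, and sex and condition cannot be told apart. An effect of sex on the hosts was not tested.

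Small nucleolar RNAs guide the chemical modification of ribosomal RNA in the nucleolus. Box C/D snoRNAs direct 2'-O-methylation through fibrillarin, and box H/ACA snoRNAs direct pseudouridylation through dyskerin. In mammals most are cut out of the introns of a host transcript after splicing. Some hosts encode ribosomal proteins or other proteins of the translation machinery, while the hosts considered here encode no known protein, and their spliced exons are commonly degraded by nonsense-mediated decay in the cytoplasm. Many snoRNA hosts start transcription at a tract of pyrimidines, the feature known as a 5' terminal oligopyrimidine tract, which ties the translation of such transcripts to growth signalling.

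The annotation (GENCODE vM21, GRCm38) places 33 snoRNA genes inside the 9 hosts, 10 in Gas5, 8 in Snhg1, 5 in Snhg12, 3 in Zfas1, 2 each in Snhg3 and Snhg5, and 1 each in Snhg6, Snhg8 and Snhg15. Snord80 in Gas5 and Snora16a in Snhg12 are each annotated more than once at nearly the same place. All counts here are therefore of annotated genes, not of distinct snoRNAs. A box C (TGATGA) within the first 25 bases together with a box D (CTGA) within the last 20 bases was found in 21 of the 33, an ACA 3 bases from the 3' end in 7, and neither in 5. One snoRNA of 7 hosts is printed to show what each host carries, on the strand of the gene, with the C and D boxes or the ACA in capitals. Snord12 (chr2:167065276-167065365, + strand), Snord87 (chr1:9942463-9942549, - strand), Snord50a (chr9:88521529-88521600, - strand), Snord47 (chr1:161038082-161038158, + strand) and Snord99 (chr4:132310691-132310764, + strand) are box C/D RNAs. Snora24 (chr3:123507937-123508066, - strand) and Snora9 (chr11:6528033-6528165, - strand) are box H/ACA RNAs.
Snord12 of Zfas1: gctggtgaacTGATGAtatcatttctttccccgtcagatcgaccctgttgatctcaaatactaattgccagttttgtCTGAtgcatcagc
Snord87 of Snhg6: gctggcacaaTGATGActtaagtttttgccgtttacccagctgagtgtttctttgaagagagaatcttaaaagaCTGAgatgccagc
Snord50a of Snhg5: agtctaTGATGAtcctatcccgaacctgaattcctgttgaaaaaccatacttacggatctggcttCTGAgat
Snord47 of Gas5: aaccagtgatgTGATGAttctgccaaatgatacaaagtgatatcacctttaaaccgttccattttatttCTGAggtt
Snord99 of Snhg12: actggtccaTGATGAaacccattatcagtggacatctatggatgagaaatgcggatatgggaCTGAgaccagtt
Snora24 of Snhg8: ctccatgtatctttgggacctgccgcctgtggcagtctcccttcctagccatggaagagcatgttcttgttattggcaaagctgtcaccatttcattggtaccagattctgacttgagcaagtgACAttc
Snora9 of Snhg15: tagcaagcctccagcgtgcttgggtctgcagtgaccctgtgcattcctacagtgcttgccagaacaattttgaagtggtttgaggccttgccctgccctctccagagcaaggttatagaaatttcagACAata
The snoRNAs themselves could not be followed in these libraries. Of the 33 snoRNA genes 29 were listed in the count tables, and 0 of these had a count in any library, whereas 339 of the 1065 snoRNA genes in the tables had at least 1. In the annotation 30 of the 33 lie inside an exon of some transcript. All values that follow are therefore those of the host transcripts.

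RefSeq promoters (GRCm38.p6, 250 bases before to 50 bases after the start) were available for 9 starts of 8 hosts, with 2 starts for Gas5 and none for Snhg6. A C followed by at least 4 further pyrimidines began exactly at the start in 2 of the 9 (Gas5 start 2 and Snhg8), compared with 2.51% of 32851 promoters, and began within 10 bases of it in 5 of the 9, compared with 30.7%. The distance of 10 bases was chosen after the sequences were seen. The windows of 40 bases on each side of the start are printed for 4 starts with the tract, in capitals, and for 2 without it, on the strand of the gene. They are chr1:161035126-161035205 (+) for Gas5 start 2, chr3:123508297-123508376 (-) for Snhg8, chr4:132308638-132308717 (+) for Snhg12, chr9:88522858-88522937 (-) for Snhg5, chr11:6528721-6528800 (-) for Snhg15 and chr19:8723447-8723526 (+) for Snhg1.
Gas5 start 2: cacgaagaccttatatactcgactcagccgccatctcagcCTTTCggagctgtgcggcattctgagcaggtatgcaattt
Snhg8: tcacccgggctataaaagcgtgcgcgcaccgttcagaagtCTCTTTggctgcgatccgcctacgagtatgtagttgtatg
Snhg12: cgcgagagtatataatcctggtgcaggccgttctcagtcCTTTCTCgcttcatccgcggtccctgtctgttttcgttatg
Snhg5: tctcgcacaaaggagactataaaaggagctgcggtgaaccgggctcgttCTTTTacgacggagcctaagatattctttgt
Snhg15: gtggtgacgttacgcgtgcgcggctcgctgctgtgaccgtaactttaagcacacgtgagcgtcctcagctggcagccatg
Snhg1: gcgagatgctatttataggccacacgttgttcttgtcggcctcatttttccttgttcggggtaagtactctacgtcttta
Further motifs were searched on both strands of the 300-base promoters. The Myc E-box CACGTG was present in 1 of the 9 (Snhg15) and in 7.15% of all promoters. The STAT site TTCNNNGAA was in 0 of the 9 and in 8.3% of all, the CCAAT box (CCAAT) in 3 of the 9 and 37.4%, the GC box GGGCGG in 7 of the 9 and 35.7%, and the TATA box TATAAA in 4 of the 9 and 13.6%. A match in these windows describes the letters only.

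Between 22804754 and 41832868 reads per CTRL library and between 16150817 and 25070105 per CML 2wk library were counted on genes. The share of mitochondrial genes was 0.816 to 1.288% in CTRL and 2.258 to 2.973% in CML 2wk. The spread between libraries was wider in CML 2wk, with a biological coefficient of variation of 32.4% compared with 10.9% in CTRL. LSK and progenitor markers summed to 2620 to 2890 in CTRL and to 1670 to 2157 in CML 2wk, in CPM, that is, counts scaled to the same library size. Both defining genes of the sort were detected, Kit at 681 to 800 CPM in CTRL and 323 to 522 in CML 2wk, and Ly6a, which encodes Sca-1, at 27.2 to 38.3 and 31.4 to 74.1. Of the 8 markers of this list 1 was higher and 6 were lower in CML 2wk. Marker sums of other lineages also differed between libraries. They were 157.5 to 201.6 in CTRL and 324.1 to 672.2 in CML 2wk for monocytes and macrophages, 75.65 to 157 and 295.5 to 1768 for mast cells and basophils, 120.4 to 155.9 and 67.45 to 2957 for stroma, 105.8 to 2361 and 74.55 to 348.7 for neutrophils, 33.62 to 133.3 and 12.33 to 56.82 for erythroid cells, 30.26 to 107.1 and 26.31 to 81.44 for B cells, and 70.06 to 95.1 and 85.77 to 189.6 for T and NK cells. The sums at the top of the stromal and the mast cell range were both in CML 2wk 2. Most of the T and NK sum was Nkg7 (67.0 to 91.8 CPM in CTRL and 84.3 to 186 in CML 2wk). Of the markers tested, 3 of 6 of monocytes and macrophages and 4 of 6 of mast cells and basophils were higher in CML 2wk. So were 2 of 5 of T and NK cells and 4 of 8 of stroma, with 0 lower in any of these lists. Lower were 5 of 6 of neutrophils, 4 of 6 of erythroid cells and 2 of 6 of B cells, with 0 higher. No marker was at 0 in every library, and the part of these cells in the results below was not tested. In bulk samples, fewer cells of a type and less RNA per cell cannot be told apart. The numbers by which the libraries are named in the deposited tables fall into 3 runs, one with CTRL 1 to 5, one with CML 2wk 1 to 5 and one with replicate 6 of both groups, so that a contrast within a run exists only for replicate 6.

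In CML 2wk 5 hosts rose, by log2 fold changes (log2FC) of 0.31 to 0.89, and 3 did not pass the test. CPM used the TMM-corrected library size, and every gene-wise p-value comes from the quasi-likelihood fit of edgeR to 18438 genes, adjusted over them by the Benjamini-Hochberg method and called under 0.05. Of the 9 hosts 8 passed the filter on low counts, and of these 5 (Snhg6, Zfas1, Snhg8, Snhg15 and Snhg5) were higher in CML 2wk and 0 were lower. Across all genes tested 30.6% were higher and 29.0% were lower at the same threshold, 59.5% in either direction. DESeq2 gave 5 higher and 0 lower as well, and the number of hosts lower with an unadjusted p under 0.05 was 0. With a term for the runs of library numbers 4 were higher, without Snhg15. In 3 of the 8, Snhg6, Zfas1 and Snhg8, every CML 2wk library was above every CTRL library, as was the case for 17.0% of all genes tested. The median log2FC of the 8 hosts was 0.43 and that of all genes tested was 0.07, and 7 of the 8 log2FC were above 0. The highest, that of Snhg6, stood at percentile 86.6 of all genes tested.

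**Figure D1:**
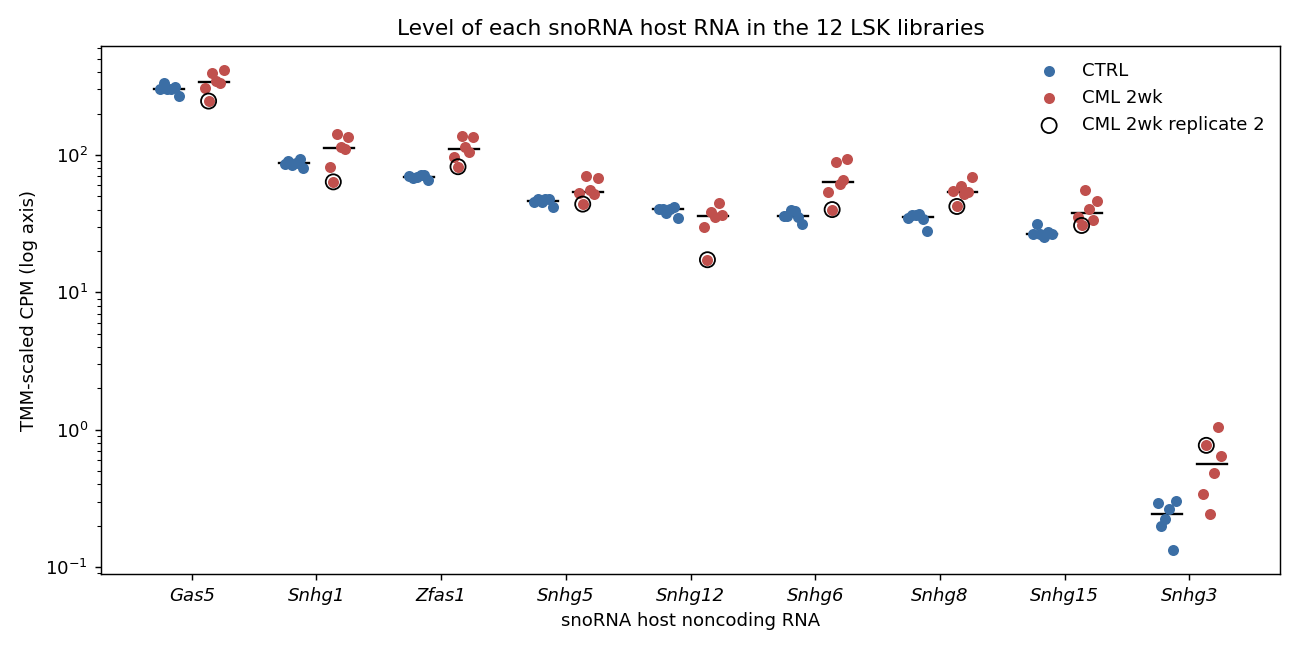
TMM-scaled CPM (log axis) of the 9 snoRNA hosts in each of the 6 CTRL (blue) and 6 CML 2wk (red) libraries, with the group median as a bar and CML 2wk 2 ringed. Snhg6, Zfas1 and Snhg8 do not overlap between the groups, and CML 2wk 2 is the lowest CML 2wk library for each of the 8 hosts that were tested.

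Among the hosts of box C/D snoRNAs, Snhg6 changed the most. Its spliced RNA has been studied as a regulator of growth in several tumours. It had 31.4, 36.1 and 39.9 CPM (lowest, median and highest library) in CTRL and 40.05, 63.1 and 92.8 in CML 2wk. All 6 CML 2wk libraries were above the highest CTRL library, although CML 2wk 2, the lowest, was above it by a small margin. The mean rose from 36.3 ± 2.98 to 67.1 ± 20.5 CPM (SD, n = 6 each), a 1.85-fold difference (log2FC 0.89, SE 0.165, adjusted p = 0.000326). The annotation gives Snhg6 127 exon bases in common with Mcmdc2, a gene on the opposite strand, and whether the counts were assigned by strand is not given in the sources used here.

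Zfas1 carries 3 box C/D snoRNAs, Snord12 and 2 relatives of it, and runs antisense to the 5' end of Znfx1, which encodes an antiviral helicase. Its CTRL libraries lay close together, at 65.7, 69.5 and 71.3 CPM (lowest, median and highest), a coefficient of variation of 2.99%. In CML 2wk it had 82.2, 110.2 and 138.2 CPM. No CML 2wk library was within the CTRL range. The mean was 69.2 ± 2.07 in CTRL and 112.2 ± 22.1 CPM in CML 2wk (SD, n = 6 each), 1.62 times higher (log2FC 0.70, SE 0.107, adjusted p = 6.08e-05). Znfx1, whose start is 81 bases from that of Zfas1, fell from 88.4 ± 3.68 to 51.4 ± 3.68 CPM (SD, n = 6 each; log2FC -0.78, SE 0.0572, adjusted p = 8.25e-08). The 2 genes have 82 exon bases in common on opposite strands, where unstranded counting could not separate them. Zfas1 also has 189 exon bases in common with Gm27494 on its own strand.

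Snhg5, the mouse counterpart of the human U50 host gene, carries Snord50a and Snord50b. It had 42.1, 46.5 and 48.0 CPM (lowest, median and highest) in CTRL and 43.9, 54.1 and 70.5 in CML 2wk. Of the CML 2wk libraries 5 were above every CTRL library, and CML 2wk 2 was inside the CTRL range. The difference was the smallest among the hosts that rose, with means of 46.0 ± 2.27 and 57.1 ± 10.2 CPM (SD, n = 6 each; log2FC 0.31, SE 0.0997, adjusted p = 0.0146). It did not pass the test when replicate 6 of both groups was left out (log2FC 0.24, adjusted p = 0.065) or when no filter on low counts was used (log2FC 0.24, adjusted p = 0.074).

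Gas5, first isolated as a transcript that accumulates in growth-arrested cells and known to bind the glucocorticoid receptor, was by far the most abundant host. It had 269.1, 303.6 and 335.0 CPM (lowest, median and highest) in CTRL and 246.8, 341.5 and 415.8 in CML 2wk. The groups overlapped: 4 CML 2wk libraries were above every CTRL library and 1, CML 2wk 2, was below every CTRL library. Means of 304.2 ± 21.3 and 341 ± 61.3 CPM (SD, n = 6 each) gave a log2FC of 0.16 (SE 0.106, 95% interval -0.06 to 0.39, adjusted p = 0.196). Without CML 2wk 2 the log2FC was 0.23 and passed the test (adjusted p = 0.024), but leaving out the lowest library raises the value by construction. Without CML 2wk 6, the highest library, it was 0.09 (adjusted p = 0.469). Of the 12 fits that left out 1 library, Gas5 did not pass the test in 11. Its neighbour Zbtb37, a zinc finger gene that starts 427 bases away on the opposite strand, fell from 58.2 ± 1.44 to 49.9 ± 7.53 CPM (SD, n = 6 each; log2FC -0.22, SE 0.0887, adjusted p = 0.0432).

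Snhg1, a host of 8 snoRNAs that include Snord22, was among the earliest genes found whose introns rather than exons hold the conserved product. Its CTRL libraries had 80.3, 86.8 and 93.3 CPM (lowest, median and highest), and its CML 2wk libraries 63.7, 112.4 and 143.0. As for Gas5, 4 CML 2wk libraries exceeded the whole CTRL range and CML 2wk 2 was under it. The means were 86.9 ± 4.48 and 108.3 ± 30.6 CPM (SD, n = 6 each), with a log2FC of 0.32 (SE 0.154, 95% interval -0.01 to 0.65, adjusted p = 0.09). Leaving out CML 2wk 2 gave 0.42 (adjusted p = 0.00327) and leaving out CML 2wk 1 gave 0.38 (adjusted p = 0.0472), both past the threshold, as was the value with upper-quartile factors (0.39, adjusted p = 0.0459). CML 2wk 2 and 1 were the lowest of their group for Snhg1, so leaving either out raises the value by construction. Without CML 2wk 3 it was 0.22 (adjusted p = 0.224) and without CML 2wk 6 0.23 (adjusted p = 0.214). Of the 12 fits that left out 1 library, Snhg1 passed the test in 2. Slc3a2, the heavy chain of several amino acid transporters, starts 106 bases away in the other direction and rose from 93.8 ± 4.74 to 158.2 ± 44.7 CPM (SD, n = 6 each; log2FC 0.75, SE 0.145, adjusted p = 0.000418).

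Among the hosts of box H/ACA snoRNAs, Snhg8 and Snhg15 rose. Snhg8 holds Snora24 in a transcript with a pyrimidine tract exactly at its start, as printed above. Its CTRL values were 28.0, 35.6 and 37.1 CPM (lowest, median and highest) and its CML 2wk values 42.2, 54.2 and 69.3. The groups did not overlap. Its mean was 34.5 ± 3.37 in CTRL and 55.2 ± 8.91 CPM in CML 2wk (SD, n = 6 each), 1.6-fold higher (log2FC 0.67, SE 0.104, adjusted p = 6.19e-05). Of the 8 hosts it had the lowest coefficient of variation in CML 2wk, 16.1%.

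Snhg15, whose transcript is known to be short-lived and to respond to stress, holds Snora9. In CTRL it had 25.4, 26.7 and 31.6 CPM (lowest, median and highest) and in CML 2wk 30.7, 37.8 and 55.4. The ranges touched only through CML 2wk 2, which was below CTRL 2, the highest CTRL library. The mean rose from 27.4 ± 2.19 to 40.2 ± 9.17 CPM (SD, n = 6 each; log2FC 0.55, SE 0.125, adjusted p = 0.00149). With a term for the runs of library numbers, where the contrast rests on replicate 6 of both groups, it did not pass the test (log2FC 0.78). Its neighbour Myo1g, which encodes a myosin of haemopoietic cells, fell from 135 ± 3.66 to 97.5 ± 5.83 CPM (SD, n = 6 each; log2FC -0.47, SE 0.0518, adjusted p = 2.66e-06).

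Snhg3, the host of the long box H/ACA snoRNAs Snora73a and Snora73b (U17), which act in the cleavage of ribosomal RNA precursors, was close to the limit of detection. It had 3 to 12 counts in the CTRL libraries and 4 to 28 in the CML 2wk libraries, and it did not pass the filter, so no test was made. In scaled units these were 0.13, 0.25 and 0.30 CPM (lowest, median and highest) in CTRL and 0.25, 0.56 and 1.05 in CML 2wk. The ranges overlapped, with 5 of 6 CML 2wk libraries above every CTRL library. The annotation gives Snhg3 135 exon bases in common with Rcc1 on the same strand and 705 of its 986 exon bases in common with Gm17300 on the other, and reads there may not have been assigned to it. Rcc1, the nucleotide exchange factor of Ran, had 83.5 ± 6.06 and 88.1 ± 9.65 CPM (SD, n = 6 each), and Trnau1ap, a factor of selenocysteine synthesis nearby, had 27.1 ± 1.6 and 30.2 ± 3.73. Neither passed the test (log2FC 0.08, SE 0.0752, adjusted p = 0.391 and log2FC 0.16, SE 0.0844, adjusted p = 0.115).

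Snhg12, which holds both kinds (Snord99, Snora16a, Snora44 and Snora61), was the only one of the 8 with a log2FC below 0. It had 35.0, 40.6 and 41.7 CPM (lowest, median and highest) in CTRL and 17.3, 36.0 and 44.7 in CML 2wk. Its CML 2wk libraries lay on both sides of the CTRL range, 1 above and 2 below it, and CML 2wk 2 was the lowest by a wide margin. The means were 39.4 ± 2.52 and 33.7 ± 9.37 CPM (SD, n = 6 each), with a log2FC of -0.23 that did not pass the test (SE 0.162, 95% interval -0.57 to 0.12, adjusted p = 0.241). It was -0.10 without CML 2wk 2 (adjusted p = 0.341) and -0.33 without CML 2wk 5 (adjusted p = 0.0917), the lowest and the highest library of the group. With a term for the runs of library numbers, where the contrast rests on replicate 6 of both groups, the sign turned (log2FC 0.07, adjusted p = 0.938).

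**Figure D2:**
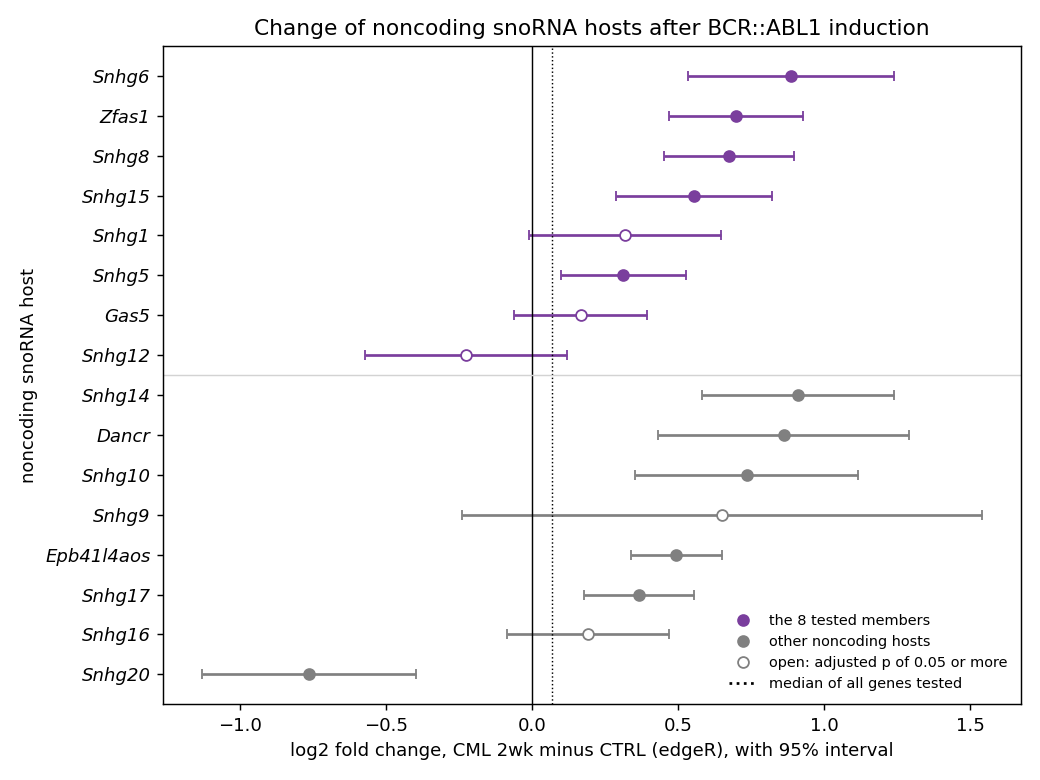
Log2 fold change (CML 2wk minus CTRL, edgeR) of the 8 hosts that were tested (purple) and of the other noncoding snoRNA hosts (grey), with 95% intervals; open circles mark an adjusted p of 0.05 or more and the dotted line the median of all genes tested (0.07). The intervals of Snhg6, Zfas1, Snhg8, Snhg15 and Snhg5 lie above 0, and those of Gas5, Snhg1 and Snhg12 include 0.

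The 8 hosts varied together from library to library. CML 2wk 2 had the lowest value of its group for 8 of 8 hosts, whereas CML 2wk 3 had the highest for 4 and CML 2wk 6 for 3. In CTRL, replicate 6 was the lowest of its group for 7 of the 8. The share of all genes tested that were lowest in these libraries was not computed. Whether the pattern is particular to the hosts was therefore not tested. CML 2wk 2 also had the fewest genes with counts of all libraries, 22965. The CPM summed over the 9 hosts was 578.6 to 685.8 in CTRL (median 647.2) and 567.5 to 1001 in CML 2wk (median 811.7). In the pair of replicate 6 alone, the one contrast within a run of library numbers, the log2 differences between CML 2wk and CTRL were 1.56 for Snhg6, 1.31 for Snhg8, 1.05 for Zfas1, 0.78 for Snhg15, 0.76 for Snhg1, 0.69 for Snhg5, 0.63 for Gas5 and 0.07 for Snhg12. This pair joins the CTRL library with mostly the lowest and a CML 2wk library with mostly high values, and its differences are 1 library against 1. Without replicate 6 of both groups, Snhg6 (log2FC 0.74, adjusted p = 0.00193), Zfas1 (0.63, adjusted p = 0.000415), Snhg8 (0.55, adjusted p = 0.000149) and Snhg15 (0.51, adjusted p = 0.00819) still passed the test. Without CML 2wk 2, the log2FC were 0.99 for Snhg6, 0.76 for Zfas1, 0.73 for Snhg8, 0.61 for Snhg15 and 0.37 for Snhg5. Leaving out the library that is lowest for every host raises these values by construction. Whether the stromal and mast cell sums of CML 2wk 2 have a part in its low values was not tested.

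**Figure D3:**
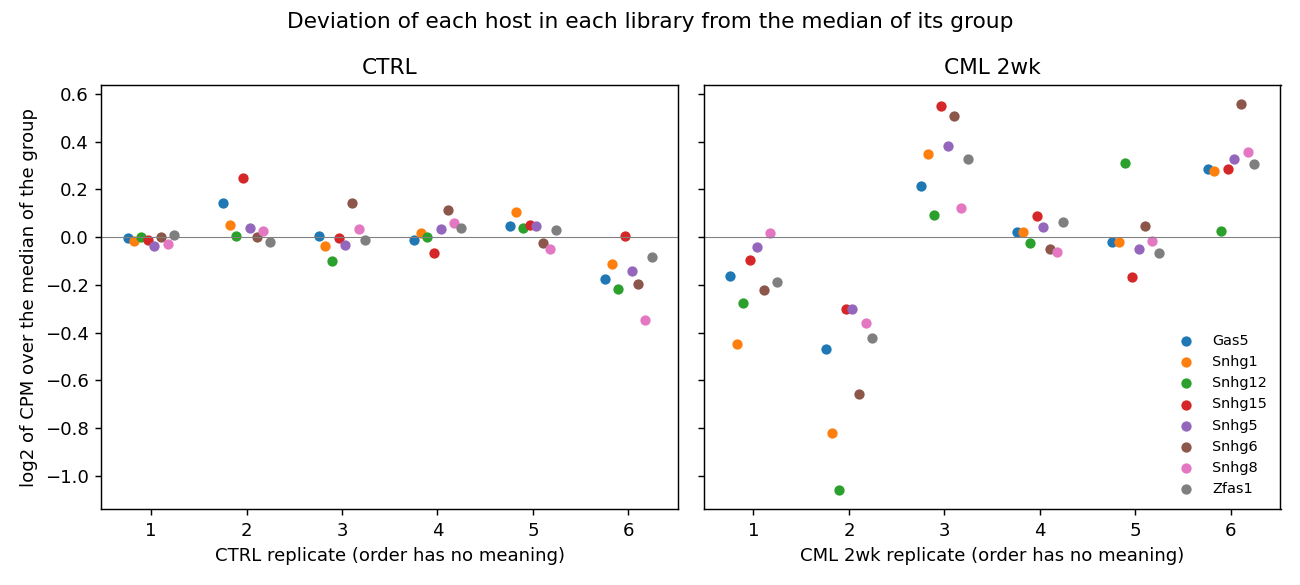
Deviation of each of the 8 hosts from the median of its group, as log2 of CPM over that median, in each CTRL (left) and CML 2wk (right) library; the order of replicates has no meaning. In CML 2wk 2 all 8 points lie below the other CML 2wk libraries' values for the same host, and in CTRL 6 the points of 7 hosts are the lowest of their group.

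Because a factor common to all hosts of a library cancels in a ratio, the log2 ratio between 2 hosts was compared between the groups for each of the 28 pairs, with the exact permutation test over the 12 libraries (two-sided, smallest possible p 0.00216) and adjustment over the 28. This comparison was chosen after the values of the hosts were seen. The ratios give the unequal fold changes above in another form, and no share was computed for pairs of other genes, so that the count is a description of the 8 hosts. In 21 of the 28 pairs the adjusted p was under 0.05. The widest difference was that of Snhg6 to Snhg12, from a log2 ratio of -0.12 ± 0.11 in CTRL to 1.00 ± 0.31 in CML 2wk (SD, n = 6 each; difference 1.12, adjusted exact p = 0.00466). The ratio of Gas5 to Snhg6 fell by 0.69, that of Gas5 to Zfas1 by 0.53 and that of Gas5 to Snhg8 by 0.52 on the log2 scale (adjusted exact p = 0.00466 for each). The share of Gas5 in the summed CPM of the hosts was 46.3% or more in every CTRL library and 43.5% or less in every CML 2wk library. Snhg12 differed from all 7 other hosts. Snhg6, Zfas1 and Snhg8 could not be told apart from each other in this way: the ratio of Snhg8 to Zfas1 was -1.01 ± 0.12 and -1.02 ± 0.15 (SD, n = 6 each; adjusted exact p = 0.918), that of Snhg6 to Zfas1 -0.93 ± 0.10 and -0.78 ± 0.19 (adjusted exact p = 0.113), and that of Snhg6 to Snhg8 0.07 ± 0.06 and 0.24 ± 0.26 (adjusted exact p = 0.192). Nor did Gas5 to Snhg1 (difference -0.12, adjusted exact p = 0.194) or Snhg1 to Snhg5 (difference -0.03, adjusted exact p = 0.723) pass the test.

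**Figure D4:**
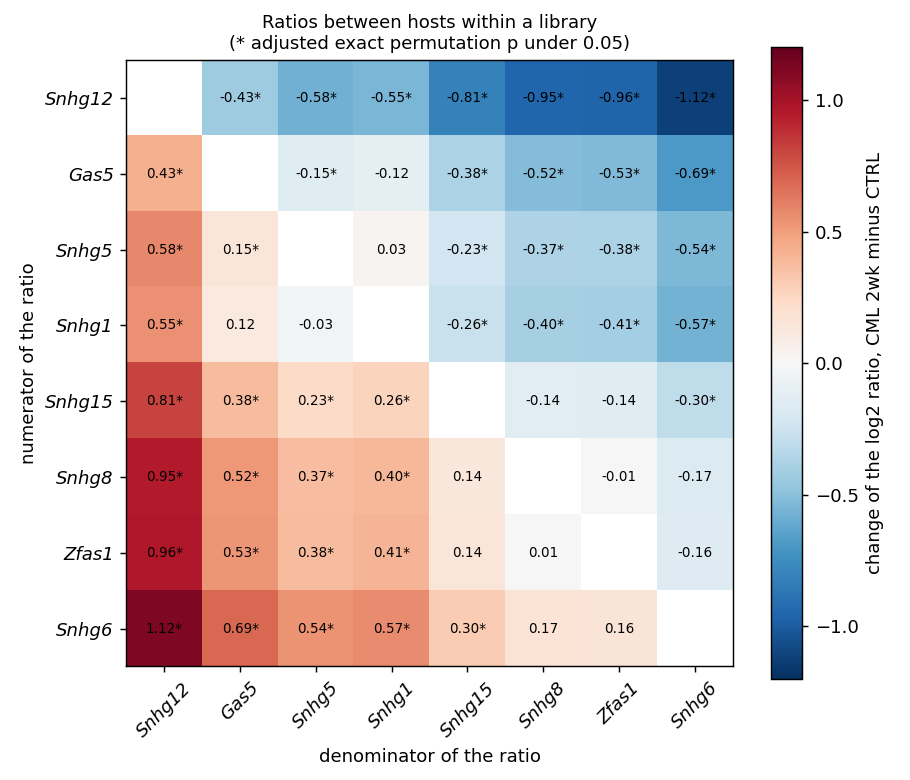
Change of the log2 ratio between each pair of hosts, CML 2wk minus CTRL, with the numerator in rows and the denominator in columns; red is an increase, blue a decrease, and a star an adjusted exact permutation p under 0.05. The row of Snhg12 is blue against all 7 other hosts, deepest against Snhg6, and the block of Snhg8, Zfas1 and Snhg6 has no star.

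Per kilobase of annotated exon, the order of the hosts in CTRL was Gas5 (80.9 ± 5.67 CPM per kb, SD, n = 6), Snhg8 (40.5 ± 3.95), Snhg6 (31.7 ± 2.60), Snhg1 (29.3 ± 1.51), Snhg5 (26.6 ± 1.31), Zfas1 (23.6 ± 0.71), Snhg15 (20.2 ± 1.61), Snhg12 (16.4 ± 1.05) and Snhg3 (0.24 ± 0.07). Gas5 was above Snhg8, Snhg15 above Snhg12 and Snhg12 above Snhg3 in every CTRL library, while the ranges of the other neighbours in this order overlapped. In CML 2wk the order was Gas5 (90.7 ± 16.3), Snhg8 (64.7 ± 10.4), Snhg6 (58.6 ± 17.9), Zfas1 (38.3 ± 7.56), Snhg1 (36.5 ± 10.3), Snhg5 (33.0 ± 5.87), Snhg15 (29.6 ± 6.75), Snhg12 (14.0 ± 3.90) and Snhg3 (0.60 ± 0.30). There the ranges of Gas5 and Snhg8 overlapped, and the only neighbours apart in range were Snhg15 and Snhg12, and Snhg12 and Snhg3. The exon lengths are those of GENCODE vM21 and include retained introns, which makes them longer than the spliced RNA, as for Gas5 with 3760 exon bases in a span of 4118.

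Further noncoding hosts were looked at for the same contrast. Of 13 listed, 10 were matched and 8 passed the filter. Of these 5 were higher, 1 was lower and 2 were not called, with a median log2FC of 0.57. It was 0.305 with a term for the runs of library numbers, which leaves CTRL 6 against CML 2wk 6, 1 library against 1. Snhg14, the host of the imprinted snoRNA clusters, rose from 4.54 ± 0.782 to 8.54 ± 1.53 CPM (SD, n = 6 each; log2FC 0.91, SE 0.153, adjusted p = 0.000135). Dancr, a transcript first described as blocking differentiation, rose from 6.60 ± 0.815 to 12.0 ± 3.87 (log2FC 0.86, SE 0.201, adjusted p = 0.00192). Snhg10 (log2FC 0.73), Epb41l4aos (0.49) and Snhg17 (0.37) rose as well. Snhg20 went the other way, from 10.5 ± 1.22 to 6.18 ± 1.75 CPM (SD, n = 6 each; log2FC -0.76, SE 0.172, adjusted p = 0.00145). Snhg9 (log2FC 0.65, adjusted p = 0.193) and Snhg16 (0.19, adjusted p = 0.221) did not pass the test, and Snhg11 and Snhg18 were below the filter.

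Protein-coding hosts were split by product. Of 20 ribosomal protein genes that host snoRNAs 18 were higher and 2 were not called (median log2FC 0.83), led by Rps12 (859.6 ± 89.2 to 2081 ± 690 CPM, SD, n = 6 each; log2FC 1.28, SE 0.174, adjusted p = 1.96e-05) and Rpl12 (log2FC 1.17, SE 0.138, adjusted p = 5.07e-06). Among all 79 cytosolic ribosomal proteins, which include these, 72 were higher and 7 were not called (median log2FC 0.82), with the largest values in Rpl41 and Rps25 (log2FC 1.31 and 1.305). With a term for the runs of library numbers the medians were 1.44 for the 20 hosts and 1.41 for the 79. That fit leaves CTRL 6 against CML 2wk 6, 1 library against 1. The mean log2 CPM of the ribosomal proteins was lowest of CTRL in CTRL 6 (8.71) and highest of CML 2wk in CML 2wk 6 (10.1). Of 21 other protein-coding hosts 13 were higher, 7 were lower and 1 was not called (median log2FC 0.33). Cct6a, a subunit of the TRiC chaperonin, rose from 379.1 ± 37.6 to 985.4 ± 168 CPM (SD, n = 6 each; log2FC 1.38, SE 0.11, adjusted p = 1.54e-07), and Eef1b2, an elongation factor subunit, had a log2FC of 0.96. Prrc2a fell from 707.2 ± 23.7 to 307.2 ± 39.5 CPM (SD, n = 6 each; log2FC -1.203, SE 0.08, adjusted p = 4.36e-08), and Tnpo2, a nuclear import receptor, had a log2FC of -0.57.

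The proteins that bind snoRNAs moved unequally. Of the 4 core box C/D proteins Nop56 (log2FC 0.52), Nop58 (0.64) and Snu13 (0.76) rose, while Fbl, the methyltransferase fibrillarin, had 118.3 ± 7.82 and 117 ± 18 CPM (SD, n = 6 each; log2FC -0.02, SE 0.0924, adjusted p = 0.888). Of the 4 core box H/ACA proteins Nhp2 (log2FC 1.15), Nop10 (0.96) and Dkc1 (0.43), which encodes the pseudouridine synthase dyskerin, rose, and Gar1 fell from 46.1 ± 4.47 to 31.5 ± 3.01 CPM (SD, n = 6 each; log2FC -0.55, SE 0.0809, adjusted p = 4.1e-05). Of 10 assembly factors 6 were higher and 1 was lower. Znhit3 (9.79 ± 0.759 to 27.2 ± 5.44 CPM, SD, n = 6 each; log2FC 1.47) and Nufip1 (log2FC 0.88), both parts of the box C/D assembly machinery, rose the most, and the nucleolar chaperone Nolc1 was the one lower (log2FC -0.23, adjusted p = 0.0374).

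Factors of nonsense-mediated decay, the pathway that removes the spliced exons of many snoRNA hosts, were mostly lower. Of 15 tested 11 fell, 3 rose and 1 was not called, with a median log2FC of -0.50, whereas 29.0% of all genes were lower. Upf1, the central helicase of the pathway, fell from 256.4 ± 11.1 to 148.4 ± 19.9 CPM (SD, n = 6 each; log2FC -0.79, SE 0.0804, adjusted p = 1.28e-06), and Casc3, a component of the exon junction complex, from 100 ± 3.69 to 51.5 ± 4.26 (log2FC -0.96, SE 0.061, adjusted p = 3.47e-08). Magoh (log2FC 1.08) and Magohb (0.44), which are also part of that complex, rose. How the level of these factors relates to that of the hosts was not tested.

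**Figure D5:**
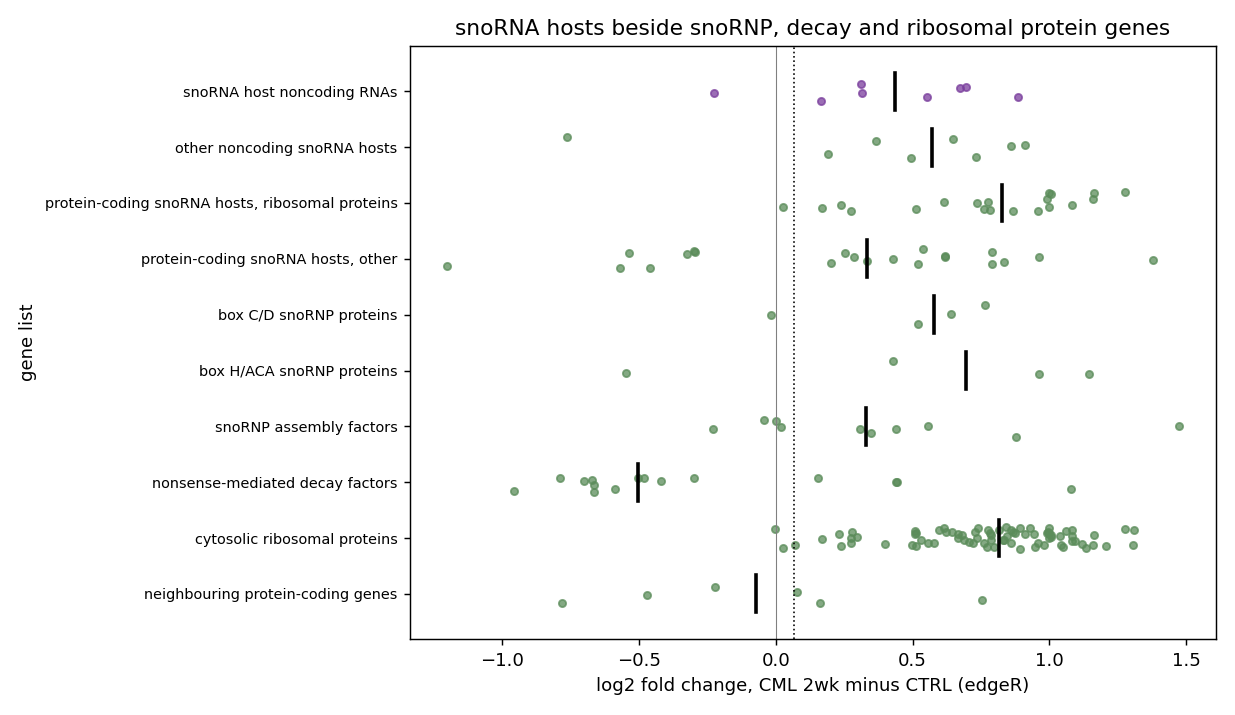
Log2 fold change (CML 2wk minus CTRL, edgeR) of each gene tested, as points, in the 8 noncoding snoRNA hosts (purple) and in 9 further gene lists (green), with the median of each list as a black bar and the median of all genes tested (0.07) as a dotted line. Medians range from -0.50 for nonsense-mediated decay factors to 0.83 for ribosomal protein hosts, with 0.43 for the 8 hosts.

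Hosts and ribosomal proteins were also compared across libraries within each group. The mean log2 CPM of the 79 ribosomal proteins was 8.71 to 8.98 in CTRL and 9.30 to 10.1 in CML 2wk. None of the 16 relations (8 hosts in 2 groups) passed an adjusted threshold of 0.05 by exact permutation of Pearson's r or of Spearman's rho, for which 6 libraries allow no p below 0.00278. Unadjusted p-values under 0.05 were given by 2 relations with r (Snhg5 and Snhg8) and 2 with rho (Snhg5 and Snhg15), all in CML 2wk. The closest was that of Snhg5 in CML 2wk, with r = 0.86 (exact permutation p = 0.0375, adjusted p = 0.178) and rho = 0.89 (exact permutation p = 0.0333, adjusted p = 0.267), and r was 0.56 without the 2 libraries farthest from the median ribosomal protein level. For Snhg12 in CML 2wk r was 0.31 (exact permutation p = 0.543, adjusted p = 0.621) and rho 0.09 (exact permutation p = 0.919, adjusted p = 1).

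Of 10151 genes outside the 9 with a mean log2 CPM of at least 3, the ones whose deviations from their group means over the 12 libraries were most like the mean of the 8 hosts were Mettl23 (Pearson's r 0.96), Srsf3 (0.95), Taf1d (0.95), Pfdn4 (0.95) and Pycard (0.95), given as a description of libraries that have depth and cell make-up in common. Mettl23 encodes a histone methyltransferase, Srsf3 a splicing factor, Taf1d a subunit of the RNA polymerase I initiation factor from a gene that itself hosts snoRNAs, Pfdn4 a prefoldin subunit and Pycard the inflammasome adaptor ASC. Within the CML 2wk libraries alone the 5 values were 0.97 to 0.99, and within CTRL alone 0.12 to 0.84, the group with the narrower spread. Their log2FC between the groups were 0.37 for Mettl23, 0.66 for Srsf3, 0.62 for Taf1d, 1.504 for Pfdn4 and 0.62 for Pycard.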

How the data were processed

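The authors deposited raw read counts per Ensembl gene for each library, without normalization. The submitters' processing notes name FastQC 0.11.9, fastp 0.23.2, STAR 2.7.10a, featureCounts 2.0.1, DESeq2 1.36.0 and GRCm39, whereas the methods of the study name Trim Galore, HISAT2 and a human build; the annotation release, the strand setting and the handling of multimapping reads are not given in the sources used here. Symbols were matched by identifier (52073 of 56748), and sequences and exon lengths came from GENCODE vM21 and RefSeq on GRCm38, so no coordinate is one of the deposited tables.

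Genes were tested in R 4.3.3 with edgeR 4.0.16, using filterByExpr (18438 genes kept), TMM factors, its quasi-likelihood test and Benjamini-Hochberg adjustment; 95% intervals used the SE and the degrees of freedom of that fit. DESeq2 1.42.0 was an alternative, and limma 3.58.1 was loaded by edgeR. CPM used TMM-scaled totals of the genes tested, and log2 CPM a prior count of 2. Ratios between hosts used counts plus 0.5. Permutation tests (scipy 1.17.1), sequence searches (pandas 2.3.3, numpy 2.4.6) and figures (matplotlib 3.10.9) were made in Python 3.11.15. In simulated counts for this comparison (18179 genes tested) edgeR called 59 of 100 genes changed by a log2FC of 1, 28 of 100 changed by 0.5 and 6 of 18238 unchanged genes. The simulation gave both groups the same spread, whereas the biological coefficient of variation was 10.9% in CTRL and 32.4% in CML 2wk. It also changed far fewer genes than the 59.5% called in the data. Its rates of detection and of false calls therefore need not hold for these libraries. No pair of the 30 within a group agreed within sampling noise (lowest chi-square per degree of freedom 3.833). Intervals cover the spread between these libraries only, and PCR copies are not independent molecules.

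The 9 hosts, the further lists and the tests were chosen with earlier results of these data known. Named were all 9 hosts, every gene of lists of 6 or fewer and of the other noncoding hosts, the 2 largest changes each way of longer lists, and the 5 genes most like the hosts. Snhg4, Snhg7 and Snhg32 had no match. Alternatives were upper-quartile and RLE factors, DESeq2, no filter, a replicate block, a term for the runs of library numbers, another prior count, and libraries left out. The relation with ribosomal proteins was planned for 18 pairs, and 16 could be computed because Snhg3 was not tested.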

Additional observations from a re-analysis of the deposited data

Results flagged for a closer look

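In 54 groups of 6 values (hosts and summed cell markers in CTRL or CML 2wk), the highest or lowest library was searched for a gap to the nearest other library above Dixon's 95% critical value. For normally distributed values chance gives about 2.7, 1 in 20, but marker sums and low CPM need not be distributed in that way. An excess over chance was therefore not shown. A gap above the critical value was found in 7 groups. Of these 3 were in CML 2wk 2, which had the lowest Snhg10 (2.61 CPM, next 4.72), the highest stromal marker sum (2960 CPM, next 553) and the highest mast cell and basophil marker sum (1770 CPM, next 702). The same library was the lowest of its group for the 8 hosts tested. CTRL 2 had the highest Snhg15 (31.6 CPM, next 27.6) and the highest Snhg9 (2.18 CPM, next 1.67). CTRL 6 had the lowest Snhg8 (28.0 CPM, next 34.4), and CTRL 4 the highest neutrophil marker sum (2360 CPM, next 475).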

How the results depend on the processing

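Each of the 8 hosts tested was fitted under 20 other settings. Snhg6, Zfas1 and Snhg8 passed the threshold with the same direction in all settings whose contrast used more than 1 library per group. Their lowest log2FC were 0.74, 0.62 and 0.55. The highest, 1.56, 1.05 and 1.31, were those with a term for the run of library numbers. That contrast rests on CTRL 6 against CML 2wk 6, 1 library against 1. With a term for the run of library numbers, 2176 genes were higher, 2468 were lower, 15 genes of the further lists were lower, the medians of ribosomal protein hosts and of all ribosomal proteins were 1.44 and 1.41, Snhg15 missed the threshold (0.78, adjusted p = 0.0922), and Snhg12 turned sign (0.0656, adjusted p = 0.938). Snhg5 missed it without the filter (0.24, adjusted p = 0.074) and without replicate 6 of both groups (0.24, adjusted p = 0.065). Snhg1 passed it with upper-quartile factors (0.39, adjusted p = 0.0459), which moved the median of all genes to 0.14, and without CML 2wk 2 and 4 (0.43, adjusted p = 0.00525), as did Gas5 (0.24, adjusted p = 0.0295). The causes were not tested. Leaving out 1 library at a time gave 0.0882 to 0.2318 for Gas5, 0.22 to 0.42 for Snhg1 and -0.3288 to -0.1013 for Snhg12, 5 to 7 hosts higher, and 19 to 23 of the 28 ratios called. With replicate number as a replicate block 5 hosts were higher, and Zfas1 had a log2FC of 0.67 (adjusted p = 0.000366); the block changed no call of a host. The numbers do not pair the libraries: same-numbered deviations correlated at -0.125 to 0.0679, and 1 of 12 libraries was most like its own number. The wider spread of CML 2wk limits what could be called near log2FC 0.3.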
